A study of Mus musculus with 12 samples.

Results

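H3K4me3 was examined at 37 genes for chromatin and transcription regulators that are mutated in human neurodevelopmental disorders, out of 21951 protein-coding genes in the GENCODE M21 annotation of the mouse genome (GRCm38). The rule names the genes and uses no H3K4me3 value, but it was set with earlier results of these data known. Peaks had been called from CUT&Tag, in which a transposase tethered by an antibody cuts the DNA of nucleosomes bearing a histone mark, on nuclei of 4 regions of the embryonic mouse forebrain: the medial, lateral and caudal ganglionic eminences (MGE, LGE and CGE) and the cortex (CTX). The embryos were wild-type C57BL/6J mice with no transgene or treatment, and tissue of each region was pooled from several embryos. The age given for this assay is embryonic day 12.5, although the protocol in the sample labels names E14.5 beside E12.5. That protocol can also be read as saying that nuclei of the 4 regions were combined before the reaction, and the lists are taken here as single regions because each library is labelled with 1 region. The 12 libraries (3 of MGE, 2 of LGE, 4 of CGE and 3 of CTX) came from 2 replicates per region, which were merged before peaks were called. Each region is therefore 1 list of peaks without a replicate error, and no difference between regions could be tested.

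Trimethylation of lysine 4 of histone H3 marks promoters that are active or poised, and is laid down by SET-domain methyltransferases of the COMPASS family and removed by lysine demethylases such as Kdm5b. Most CpG-rich promoters carry it, and genes for regulators of cell identity often carry it over wider stretches. The 37 genes act on this layer of regulation themselves: they move nucleosomes, write, erase or read histone and DNA methylation and acetylation, load cohesin, or bind DNA as transcription factors. Loss of a single copy of many of them causes intellectual disability or autism in people.

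The 4 lists differed in the shape of their peaks, and every comparison between regions below is read against this. The MGE list held 25339 peaks with a median width of 563 bp, and the CTX list 21442 with a median of 701 bp. The LGE list held 17284 peaks with a median of 1168 bp, and the CGE list 17752 with a median of 1240 bp. MGE and CTX thus had more and narrower peaks, and LGE and CGE fewer and wider ones. For each gene, the bases under peaks within 5 kb of any annotated transcription start site (TSS) were counted, and these are called covered bases. A gene with at least 1 such base is called marked, and its percentile is the share of the marked protein-coding genes of the same list with fewer covered bases. The percentile removes a difference in width that all genes of a list share, but not one that depends on the gene. Over all genes marked in at least 1 list, a gene's percentile moved by a median of 4.34 points between MGE and CTX and of 3.07 between LGE and CGE, against 7.50 to 8.10 points between a list of the first pair and one of the second. The peak lists hold no read counts, the read numbers per library stated in the study's methods were not used here, and the part of depth in this split was not tested.

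The region markers followed the dissection in part. Nkx2-1, the transcription factor that specifies the MGE, had 3262, 2934 and 3804 covered bases in MGE, LGE and CGE and no peak in CTX. Lhx6, a factor of MGE-derived interneurons and the other MGE marker, had 3057, 3711, 5920 and 451 in MGE, LGE, CGE and CTX, and was thus highest in CGE. Dlx2 and Dlx5, homeodomain factors of the ganglionic eminences, had 2227, 2734, 2758 and 1128 and 2416, 3808, 4076 and 857, the lowest being CTX for both. Nr2f2, a nuclear receptor enriched in the CGE, had 3700, 5401, 12460 and 2208 covered bases in MGE, LGE, CGE and CTX. Emx1, a cortical factor, had 495 covered bases in MGE but 3337 in LGE, 3453 in CGE and 2969 in CTX, so it did not separate CTX from LGE and CGE. Neurod6, the second cortical marker, had 328, 1132, 584 and 242. None of the 4 microglial markers (Aif1, Csf1r, Cx3cr1 and C1qa) was marked in any list. Of 3 endothelial markers, 2 were marked in MGE and 1 in each other list, with summed covered bases of 663, 918, 954 and 608 in MGE, LGE, CGE and CTX; the most covered was Cldn5, and Cdh5 had no peak. Of the red cell markers, Klf1 had 768, 971, 1048 and 984 covered bases, and the globin gene Hbb-bt had no peak. Of 3 pericyte and mesenchyme markers, 3, 2, 3 and 3 were marked (863, 1472, 2599 and 1394), led by Pdgfrb in MGE and CGE, by Col1a2 in LGE and by Col1a1 in CTX. Of 3 oligodendrocyte lineage markers, 2 were marked in MGE and 1 in each other list (2147, 1676, 1638 and 334), led by Olig1, and Mog had no peak. Low coverage at most of these genes was present in every list, and its part in the values below was not tested.

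All 37 regulators were marked in all 4 lists (37 of 37 in each, Wilson 95% interval 90.6 to 100%, which covers counting error only). With lists of equal size taken by highest fold 31 were, and the share of all genes in that setting was not counted. The background in the full lists, in the order MGE, LGE, CGE and CTX, was 65.0%, 64.2%, 64.6% and 63.8% of protein-coding genes, and 61.3% had a peak in all 4 lists. The regulators also stood high among the marked genes. Their median percentile of covered bases was 91.9 in MGE (95% interval of the median over the genes 84.4 to 96.2) and 92.4 in CTX (81.4 to 96.7). It was 88.7 in LGE (82.9 to 93.6) and 86.7 in CGE (83.1 to 93.1), where 50 is the median of all marked genes. Their median covered bases in MGE, LGE, CGE and CTX were 2090, 2482, 2539 and 2207, against 1044, 1402, 1497 and 1088 bases over all marked genes. A percentile of 90 or more was reached by 23, 16, 16 and 20 of the 37 in MGE, LGE, CGE and CTX. It was reached in all 4 lists by 14 of them, against 5.04% of the genes marked in at least 1 list. At the other end, 34 of the 37 were above the 50th percentile in every list, and the 3 that were not were Chd2, Hdac4 and Crebbp. The share of all genes above it in every list was not counted, so this count is not read as particular to the regulators. The distributions of covered bases lay to the right of those of all marked genes along their whole length in every list.

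**Figure D1:**
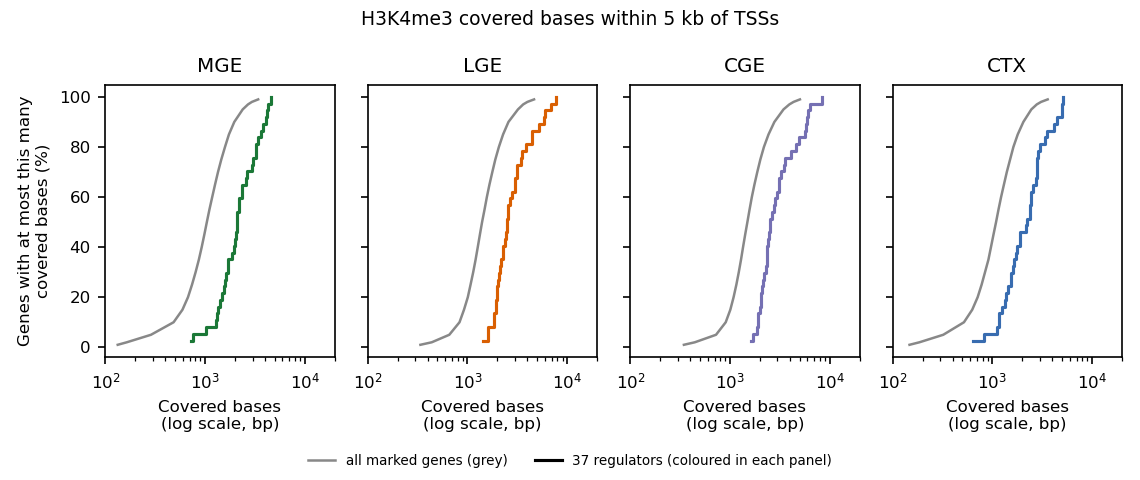
Cumulative share of genes (vertical axis, %) by H3K4me3 covered bases within 5 kb of TSSs (horizontal axis, bp, log scale) in the 4 lists; grey lines are all marked protein-coding genes from the 1st to the 99th percentile and coloured steps the 37 regulators. The regulators lie to the right in every list, with medians of 2090, 2482, 2539 and 2207 bases in MGE, LGE, CGE and CTX against 1044, 1402, 1497 and 1088.

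These genes are long and have many annotated TSSs, which gives peaks more places to be counted. The median regulator had 8 TSSs, 40004 bases inside the 5-kb windows and a gene length of 108544 bp, against 4 TSSs, 16992.5 bases and 24284.5 bp for marked genes. Genes marked in all 4 lists were also split by TSS number, with the regulators counted among them. Among those with 4 to 7 TSSs, the median of the mean percentile over the 4 lists was 89.4 for the 13 regulators and 50.5 for the 5369 genes. Among those with 8 to 15 TSSs it was 79.7 for 11 regulators and 60.4 for 2795 genes. With 16 or more TSSs it was 98.8 for 9 regulators and 77.2 for 293 genes. When only the 5 kb either side of the gene 5′ end was read, the same window for every gene, the median percentile was 94.2, 92.0, 91.8 and 91.8 in MGE, LGE, CGE and CTX, with 35 of 37 marked in all 4 lists, against 58.6% of protein-coding genes. When covered bases were instead divided by the size of the windows, the medians fell below 50, to 44.8, 36.7, 34.8 and 42.7. The high rank was thus one of wide marking at a few of the annotated start sites, with most start sites of the same genes outside peaks.

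The marked stretches were wide rather than strong. The widest peak at a regulator had a median width of 1607, 2358, 2498 and 1719 bp in MGE, LGE, CGE and CTX, against 970, 1338, 1425 and 1017 bp over marked genes. At least 3 kb were covered at 10, 12, 14 and 8 of the regulators, while 1.84%, 6.25%, 8.10% and 2.25% of marked genes reached this. The highest fold enrichment of a peak at the gene, which the peak caller averages over the peak's length, had a median of 5.37, 4.74, 4.78 and 5.40, against 6.43, 6.28, 6.69 and 6.59 over marked genes. Ranked within each list, this fold stood at a median percentile of 32.0, 20.3, 18.6 and 29.2 for the regulators. A low average fold went with wide coverage in general: all marked genes at or above the 90th percentile by covered bases had a median fold percentile of 25.3, 16.2, 17.9 and 23.7.

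**Figure D2:**
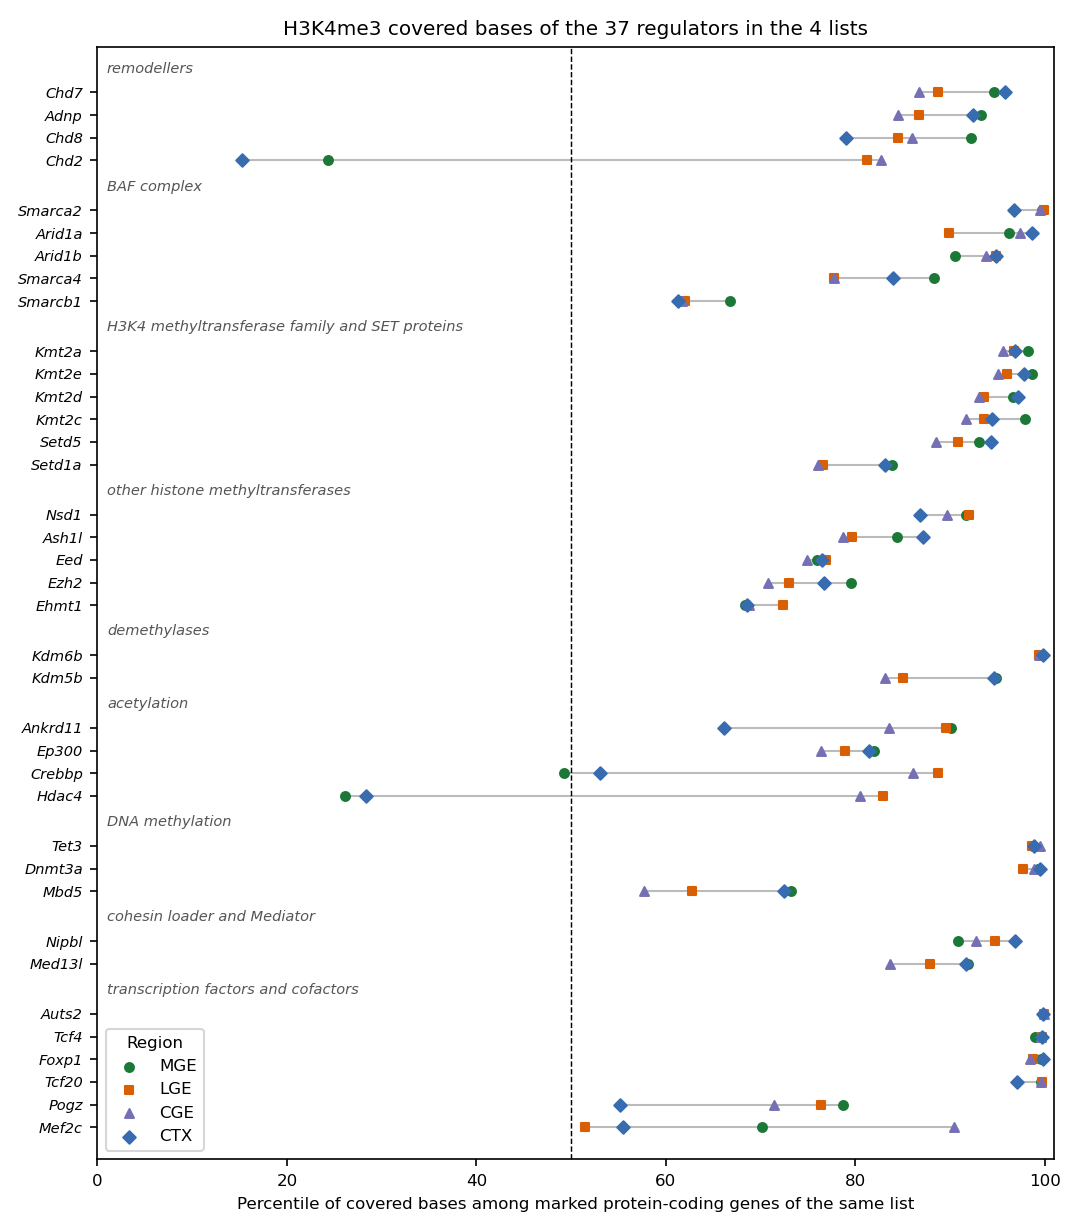
Within-list percentile of covered bases (horizontal axis; the dashed line at 50 is the median of marked protein-coding genes) of each of the 37 regulators, grouped by role, with 1 symbol per list and a grey line over their range. Most symbols lie to the right of 80, and Chd2, Hdac4, Crebbp and Mef2c are spread over at least 30 points.

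Among the chromatin remodellers, Chd7, an ATPase of the CHD family mutated in CHARGE syndrome, had 2345, 2482, 2539 and 2560 covered bases in MGE, LGE, CGE and CTX. Adnp, a homeodomain protein found in a complex with the remodeller Chd4, had 2215, 2358, 2409 and 2207 in a single peak in each list. Both varied by less than 10 percentile points between regions. Chd8, a remodeller whose loss is among the recurrent genetic findings in autism, had 2116, 2256, 2494 and 1596 covered bases in 3 separate peaks. In each list 1 of these peaks lay past the 3′ end of Chd8, within 5 kb of an internal Chd8 TSS, and held the TSSs of Supt16 and Gm26590, so the mark there cannot be assigned to Chd8. Within 5 kb of the Chd8 5′ end alone there were 1246, 1279, 1301 and 742 bases, at a mean percentile of 44.0 in place of 85.4. Chd2, the last of the 4, is described with the genes that differed between lists.

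The 5 genes of the BAF complex, the SWI/SNF remodeller of mammals, spanned the middle to the top of the lists. Smarca2 and Smarca4 encode its alternative ATPases. Smarca2 had 4310, 6822, 5915 and 2721 covered bases in MGE, LGE, CGE and CTX, and Smarca4 1874, 1990, 2112 and 1756, so the first ATPase gene was the more covered in every list. Arid1a and Arid1b encode the alternative large subunits of the canonical complex. Arid1a had 2567, 2574, 4081 and 3354 covered bases and Arid1b 2004, 3172, 3247 and 2433, at mean percentiles of 95.6 and 93.5. Smarcb1, a core subunit, was the least covered of the 5 with 1294, 1601, 1692 and 1244 bases in a single peak, and its mean percentile of 62.9 was above those of Chd2 and Hdac4 only among the 37.

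The genes for H3K4 methyltransferases and related SET proteins were wide in all regions in the lists as deposited. Kmt2a, the MLL1 methyltransferase, had 3013, 3553, 3577 and 2780 covered bases in a single peak in each of MGE, LGE, CGE and CTX. Kmt2e, whose SET domain is not known to be an active H3K4 methyltransferase, had 3248, 3441, 3462 and 3007, also in a single peak. Kmt2c and Kmt2d, the methyltransferases associated with enhancers, had 2387 to 2971 and 2646 to 3143 bases. These 4 genes were at or above the 91.7th percentile in every list. Their folds were low within the lists, at fold percentiles of 1.55 to 12.6. Kmt2c was at 6.38, 9.65, 11.2 and 12.6, and Kmt2a at 2.13, 2.02, 4.29 and 4.20. With lists of equal size taken by highest fold, the peaks of all 4 genes were therefore lost in MGE, and those of Kmt2a and Kmt2e in CTX as well, so that the 4 genes were at least 30 points apart, as were 20.5% of genes. In LGE and CGE they then stayed at percentiles of 92.4 to 96.7. Setd5 had 2189, 2660, 2667 and 2374 covered bases. In each list the peaks at the 5′ ends of Kmt2a, Kmt2c, Kmt2e and Setd5 also held a TSS of another gene. These were AC061963.1, 4831440E17Rik, 5031425E22Rik and Gt(ROSA)26Sor, so the mark there and its width cannot be assigned to 1 gene. Setd1a, which trimethylates H3K4 at promoters, had 1704, 1953, 2051 and 1719 and was the only 1 of the 6 below the 90th percentile in every list.

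The 5 other histone methyltransferase genes, each with a single peak in each list, ranked lower, with a median mean percentile of 76.1 against 94.8 for the H3K4 group. Nsd1, an H3K36 methyltransferase mutated in Sotos syndrome, had 2079, 2786, 2770 and 1873 covered bases. Ash1l, also an H3K36 methyltransferase, had 1719, 2051, 2146 and 1884, fewer than Nsd1 in MGE, LGE and CGE and about as many in CTX. Ezh2 and Eed, the catalytic and the H3K27me3-binding subunits of Polycomb repressive complex 2, had 1576, 1847, 1907 and 1544 bases and 1479, 1964, 2017 and 1538 bases. The 4 percentiles of Eed lay within 1.96 points, and those of Ezh2 within 8.69. Ehmt1, which with its partner Ehmt2 methylates H3K9, had 1323, 1835, 1851 and 1370 bases.

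The 2 demethylase genes were both broad, but in different ways. Kdm5b, which removes H3K4 methylation, had 2364, 2277, 2337 and 2416 covered bases in 2 peaks, 1 over its 5′ end and 1 upstream of it. It was among the few regulators with about the same number of bases in every list, so its percentile was lower in LGE and CGE (85.0 and 83.1) than in MGE and CTX (94.8 and 94.6). Kdm6b, which removes H3K27 methylation, had 3848, 5224, 5698 and 4973 covered bases and stood at or above the 99.4th percentile in every list. No annotated TSS of Kdm6b lay inside a peak in any list. Its peaks fell on both sides of the 5′ end: the widest lay in the first part of the gene body (1566, 2935, 2983 and 2917 bp, almost all intronic) and others lay upstream of the gene. The nearest edge of a peak to an annotated Kdm6b TSS was 1625, 1465, 1407 and 1614 bp away. A peak at Kdm6b in each list also held a TSS of Kdm6bos, so the mark was not assignable to 1 gene there.

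The acetylation genes held 2 of the 4 regulators that differed between lists. Crebbp and Ep300 encode the paralogous acetyltransferases CBP and p300. Ep300 had 1642, 2026, 2059 and 1662 covered bases in MGE, LGE, CGE and CTX in a single peak, and its percentiles lay within 5.65 points (82.0, 78.9, 76.4 and 81.4). Crebbp did not match its paralogue in this, as described below together with the deacetylase gene Hdac4 and with Ankrd11, whose product binds histone deacetylases.

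The DNA methylation genes were at the top of the lists apart from Mbd5. Dnmt3a, a de novo DNA methyltransferase, had 3634, 3844, 4937 and 4144 covered bases in MGE, LGE, CGE and CTX, and Tet3, a 5-methylcytosine dioxygenase, 3288, 4417, 5849 and 3497. Both were at or above the 97.7th percentile throughout. Mbd5, a protein with a methyl-CpG-binding-like domain, had 1417, 1618, 1619 and 1450 bases in a single peak that also held a TSS of Orc4 in each list. Nipbl, which loads cohesin, had 2026, 3158, 3083 and 2783 covered bases, in 1 peak in LGE and CGE, which spanned 2 of its 3 MGE peaks. Med13l, of the Mediator kinase module, had 2090, 2424, 2363 and 2151 bases in 1 peak.

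With windows summed over all TSSs, the transcription factor and cofactor genes were the most covered class, with a median mean percentile of 99.1. At the 5′ end alone their median was 84.2, with Mef2c, which had no peak there, counted as 0. This was below 97.6 for the H3K4 group, 96.8 for the demethylases, 95.3 for Nipbl and Med13l, 95.2 for the BAF genes and 87.4 for the DNA methylation genes. Auts2, a regulator that associates with a Polycomb complex and is linked to intellectual disability, had 4629, 7833, 8331 and 5130 covered bases in MGE, LGE, CGE and CTX and the highest mean percentile of the 37 (99.9). Kdm6b and Tcf4 followed at 99.5. Tcf4, the basic helix-loop-helix factor mutated in Pitt-Hopkins syndrome, had 3433, 5930, 6126 and 4455 bases. Foxp1, a forkhead factor, had 4202, 4483, 4572 and 4986, and Tcf20, a coactivator, 4146, 5972, 6312 and 2823. Auts2, Tcf4, Foxp1 and Tcf20 were at or above the 90th percentile in every list, while Mef2c and Pogz were not. With the 5′ end alone the mean percentiles were 97.3 for Auts2, 96.9 for Foxp1, 92.3 for Tcf4 and 51.8 for Tcf20.

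Between lists, 4 of the 37 regulators had percentiles at least 30 points apart: Chd2, Hdac4, Crebbp and Mef2c. This is the case for 15.7% of the 14900 protein-coding genes marked in at least 1 list. With lists of equal size taken by highest fold it was 14 of the 37 against 20.5% of genes. By the width of the widest peak it was 9 against 19.9%. In the main setting the range was under 10 points for 27 of the 37 and for 35.9% of genes. Percentiles near the top leave little room to differ, so neither count shows that the regulators vary less than other genes. Smarca2 had 2.51 times as many covered bases in LGE as in CTX with a range of 3.22 points, and Tcf20 2.12 times with 2.59. In 3 of the 4 genes (Chd2, Hdac4 and Crebbp) LGE and CGE were both at least 30 points above MGE and CTX, a pattern of 2.18% of genes that was defined after the values had been seen and that follows the split of the lists in peak width. Between MGE and CTX alone no regulator was 30 points apart (6.04% of all genes), and between LGE and CGE alone only Mef2c was (2.08%).

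Chd2 (chromosome 7, 73426638 to 73541830, minus strand), a CHD remodeller mutated in childhood epilepsy, had the largest range of the 37. It had 732 covered bases in MGE and 634 in CTX (percentiles of 24.3 and 15.3), and 2110 in LGE and 2315 in CGE (81.2 and 82.7). The values of LGE and CGE were about alike and those of MGE and CTX far below. With lists of equal size taken by highest fold the percentiles were 22.9, 81.2, 11.2 and 14.1 in MGE, LGE, CGE and CTX, so that CGE was then low as well. It had 2 peaks in each list. The peak at the 5′ end spanned 296 bp in MGE, 177 bp in CTX, and 1384 and 1382 bp in LGE and CGE, where it reached 1086 bases further into exonic sequence (73540550 to 73541635). The other, about 4 kb into the gene, spanned 436 and 457 bp in MGE and CTX, and 726 and 933 bp in LGE and CGE. Ranked within each list, the highest fold at Chd2 ran the opposite way, at fold percentiles of 98.4 and 98.0 in MGE and CTX and of 24.4 and 19.7 in LGE and CGE. These folds belong to the internal peak, which held a TSS of Gm44686 in each list and none of Chd2 in MGE and CTX. The peak at the 5′ end had the lower fold of the 2 peaks in each list.

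Hdac4 (chromosome 1, 91928779 to 92195699, minus strand), a class IIa histone deacetylase, was covered by 1 peak in each list, and this peak did not lie at the annotated 5′ end but 15.4 kb downstream, over the second group of TSSs. It had 759 covered bases in MGE and 823 in CTX (percentiles of 26.1 and 28.4), and 2186 in LGE and 2217 in CGE (82.9 and 80.5). The peaks of LGE and CGE contained those of MGE and CTX and reached 1052 bases further into the gene and 301 bases further upstream. The 300 bases around the RefSeq start there (GRCm38.p6, chr1:92180292-92180591, minus strand, 250 bases before to 50 after the start) are shown because Hdac4 was among the 2 regulators with the lowest mean percentile and the largest range. They were inside a peak in all 4 lists and hold 32 CpG dinucleotides, printed in capitals, whereas the 300 bases at the annotated 5′ end hold 2.
Hdac4: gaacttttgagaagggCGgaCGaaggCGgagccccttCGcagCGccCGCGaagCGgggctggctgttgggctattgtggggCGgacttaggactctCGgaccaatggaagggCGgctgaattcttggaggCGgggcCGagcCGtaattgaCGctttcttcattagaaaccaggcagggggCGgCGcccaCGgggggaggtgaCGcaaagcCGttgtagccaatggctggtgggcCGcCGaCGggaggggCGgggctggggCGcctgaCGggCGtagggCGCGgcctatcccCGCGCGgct

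Crebbp (chromosome 16, 4081328 to 4213997, minus strand) had 1034 covered bases in MGE and 1124 in CTX (percentiles of 49.3 and 53.0), and 2481 in LGE and 2498 in CGE (88.7 and 86.1). In LGE and CGE this was 1 peak of 2481 and 2498 bp. In MGE it was 2 peaks of 459 and 575 bp, and in CTX 2 of 559 and 565 bp, on either side of a gap of 489 and 513 bases. With peaks less than 1 kb apart joined, the percentiles became 76.0, 88.6, 86.0 and 79.1, a range of 12.6 points. Of the 1305 bases covered in LGE and CGE and in neither MGE nor CTX, 489 were in the gap, and stretches of 617 and 199 bases lay at the outer edges. The gap in MGE (4213417 to 4213905) was exonic throughout and consisted of 85.1% G and C, with 93 CpG, against 68.9% and 69.5% G and C in the peaks beside it. The RefSeq promoter of Crebbp (GRCm38.p6, chr16:4213355-4213654, minus strand) lies across the edge of this gap, with 300 of 300 bases inside a peak in LGE and CGE and 62 in MGE and CTX. It is shown with its 49 CpG in capitals.
Crebbp: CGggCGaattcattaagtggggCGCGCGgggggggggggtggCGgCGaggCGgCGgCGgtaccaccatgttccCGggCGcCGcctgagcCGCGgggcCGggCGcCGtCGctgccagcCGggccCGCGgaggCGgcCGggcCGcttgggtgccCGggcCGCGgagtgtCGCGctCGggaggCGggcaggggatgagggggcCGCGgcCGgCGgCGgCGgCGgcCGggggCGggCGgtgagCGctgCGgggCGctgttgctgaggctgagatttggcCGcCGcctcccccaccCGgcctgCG

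Ankrd11, mutated in KBG syndrome, showed the same shape at its 5′ end. It had 1975, 2552, 2355 and 1323 covered bases in MGE, LGE, CGE and CTX. LGE and CGE had a peak of 2297 and 2355 bp there, and MGE and CTX 2 peaks (714 and 657 bp, and 689 and 634 bp) around a gap of 524 and 528 bases with 82.8% G and C. Part of the MGE coverage came from 2 further peaks inside the gene, and the percentiles were 90.1, 89.6, 83.6 and 66.1. With windows of 10 kb they were 83.4, 82.5, 74.6 and 65.3. After peaks separated by less than 1 kb had been joined they were 94.3, 89.5, 83.5 and 84.7. Ankrd11 was at least 30 points apart with lists of equal size (90.8, 89.6, 84.3 and 17.4) and by the width of the widest peak (25.8, 91.4, 90.3 and 20.3). Gaps under 1 kb that were bridged by 1 peak in both LGE and CGE were common in the whole lists, with 767 in MGE and 563 in CTX, and 8 and 6 regulators had one. The share of all genes with such a gap was not counted, so the 8 and 6 are not read as particular to the regulators. The median G and C content of such gaps was below that of the peaks beside them (52.4% and 61.2% in MGE, 52.1% and 60.9% in CTX). Gaps richer in G and C than both neighbours made up 23.5% in MGE and 18.7% in CTX. A content of 80% or more, as at Crebbp and Ankrd11, was found in 7.30% of these gaps in MGE and 6.22% in CTX. At the 6 other regulators with a bridged gap in MGE (Smarca2, Kdm6b, Nipbl, Auts2, Tcf4 and Tcf20) it was 39.0% to 62.8%. The part of base composition in the gaps was not tested.

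Mef2c (chromosome 13, 83504034 to 83667080, plus strand), a MADS-box factor needed in cortical neurons and in interneurons, was the only regulator set apart in CGE. In MGE, LGE, CGE and CTX it had 1353, 1426, 2828 and 1158 covered bases, at percentiles of 70.1, 51.5, 90.4 and 55.5. CGE was more than 10 points above each other list, which 3.76% of genes were. The difference lay in 1 peak over the third group of TSSs, 20.3 kb into the gene, which was 1170, 1122, 2460 and 1017 bp wide. In CGE it reached 1313 bases further into the gene (83524938 to 83526250, exonic in the annotation, 39.3% G and C), while the upstream edges lay close together, at 83523722, 83523816, 83523791 and 83523870. A second peak about 14 kb into the gene was 643, 770, 883 and 590 bp wide and held no annotated Mef2c TSS. With windows of 10 kb the percentiles were 79.2, 65.1, 92.6 and 70.5, and CGE remained the highest with a range of 27.5 points.

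The annotated 5′ end of Mef2c had no peak within 5 kb in any list. Of 3 RefSeq promoter entries of Mef2c, the first 2 are shown, at the 5′ end (GRCm38.p6, chr13:83503784-83504083, plus strand) and 19.6 kb downstream (chr13:83523406-83523705, plus strand), with CpG in capitals. They hold 1 and 10 CpG against 32 and 49 in the sequences of Hdac4 and Crebbp above, and no base of either lay inside a peak, although the peaks over the third group of TSSs began just downstream of the second.
Mef2c, 5′ end: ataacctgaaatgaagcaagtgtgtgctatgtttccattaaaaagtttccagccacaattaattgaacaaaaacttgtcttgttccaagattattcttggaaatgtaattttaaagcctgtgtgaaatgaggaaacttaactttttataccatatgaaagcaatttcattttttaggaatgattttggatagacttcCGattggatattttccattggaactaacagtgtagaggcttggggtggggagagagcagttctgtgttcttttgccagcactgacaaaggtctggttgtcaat
Mef2c, internal: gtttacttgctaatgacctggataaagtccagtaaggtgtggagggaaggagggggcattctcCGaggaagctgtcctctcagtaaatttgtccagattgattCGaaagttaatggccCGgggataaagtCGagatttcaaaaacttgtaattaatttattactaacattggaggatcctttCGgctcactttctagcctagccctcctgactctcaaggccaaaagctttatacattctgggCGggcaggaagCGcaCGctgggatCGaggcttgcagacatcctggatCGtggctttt

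In CTX, 2 regulators were at least 10 points below each other list, Ankrd11 and Pogz, where the background was 6.46% of genes. Pogz, a zinc finger protein with a transposase-derived domain that is mutated in White-Sutton syndrome, had 1547, 1949, 1919 and 1154 covered bases in MGE, LGE, CGE and CTX, in a single peak whose upstream edge was nearly the same in the 4 lists. Its percentiles were 78.7, 76.4, 71.4 and 55.2. With windows of 10 kb they were 92.6, 89.7, 87.1 and 87.4, and CTX was no longer apart for Pogz or Ankrd11. Nor was it for either gene with the share of the windows covered, or for Ankrd11 with joined peaks, the width of the widest peak or the 5′ end alone. No regulator stood 10 points above or below the other lists in MGE (5.70% and 5.11% of genes) or LGE (1.89% and 1.65%), none was below in CGE (1.30%) and none above in CTX (5.66%).

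**Figure D3:**
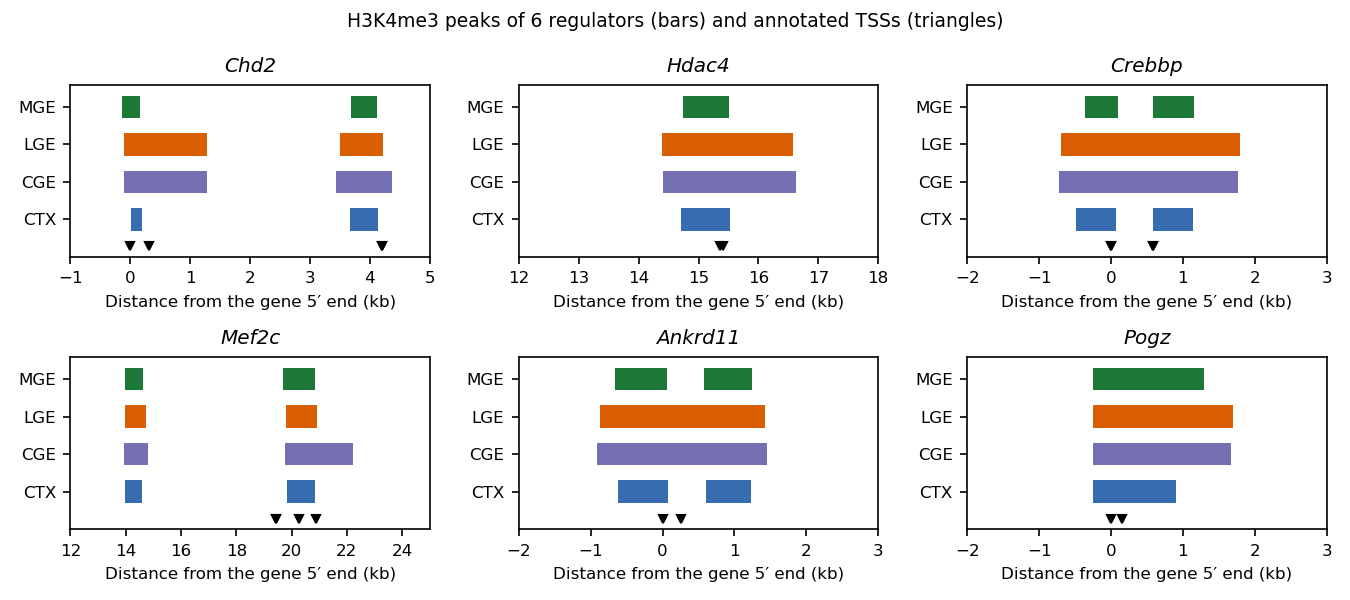
H3K4me3 peaks (bars, 1 row per list) of Chd2, Hdac4, Crebbp, Mef2c, Ankrd11 and Pogz against the distance from the gene 5′ end (horizontal axis, kb, in the direction of transcription); triangles are the first and last annotated TSS of each TSS group in view. LGE and CGE have 1 peak where MGE and CTX have 2 at Crebbp and Ankrd11, wider peaks at Chd2 and Hdac4, and at Mef2c the widest peak is the 2460-bp one of CGE.

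In covered bases rather than percentiles, most regulators were wider in LGE and CGE, as genes in general were. The median ratio of CGE to MGE was 1.25 over the regulators and 1.40 over the 13463 genes marked in all 4 lists, with 36 of 37 regulators and 96.2% of genes higher in CGE. The median ratio of LGE to CTX was 1.23 and 1.26, with 32 of 37 regulators and 91.6% of genes higher in LGE. Arid1a, Chd7, Dnmt3a, Foxp1 and Kdm5b had fewer bases in LGE than in CTX. Between CGE and CTX, 34 of 37 regulators and 94.8% of genes were higher in CGE. The ratio of MGE to CTX was 0.977 for the regulators and 0.980 for all genes, and that of CGE to LGE was 1.02 and 1.05. At Chd2 the ratio of CGE to MGE was 3.16, at Hdac4 2.92 and at Crebbp 2.42.

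Most annotated TSSs of the regulators were not inside peaks. TSSs less than 500 bp apart were joined into groups, which gave 248 groups over the 37 genes, and 67 of these held a TSS inside a peak in at least 1 list and 53 in all 4. A TSS group inside a peak is called marked here. Peaks of the regulators that also held a TSS of another gene numbered 15, 16, 16 and 15 in MGE, LGE, CGE and CTX, for example of Dap3 at Ash1l and of Gt(ROSA)26Sor at Setd5, and the mark cannot be assigned to 1 gene there. In 21 genes exactly 1 group was marked in any list, in 15 there were 2 or more, and in Kdm6b there was none. The marked groups were the same in all lists in 29 genes, and differed in Chd2, Arid1a, Arid1b, Smarca2, Nsd1, Dnmt3a, Tcf4 and Tcf20. Groups were counted for the regulators alone, without a share over all genes, so these counts are not read as particular to them. The first group, at the annotated 5′ end, was marked in all 4 lists in 30 genes and in none in 6: Nsd1, Kdm6b, Hdac4, Tet3, Tcf4 and Mef2c. The 5′ end itself lay inside a peak in 30, 29, 30 and 29 of the 37 in MGE, LGE, CGE and CTX, a share near that of all marked genes (76.1%, 80.6%, 82.0% and 77.4%).

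Several of the genes with the most covered bases had marked promoters far apart. Auts2 (chromosome 5, 1106012 bp long) had 5 of its 13 groups marked in every list. These lay at the 5′ end, at 927 kb and at about 1000 kb, and the peaks there were 500, 2112, 2539 and 490 bp wide at 927 kb in MGE, LGE, CGE and CTX and 1665, 2858, 2918 and 1672 bp at 1000 kb. The peaks of LGE and CGE at 927 kb also held a TSS of 2810432F15Rik, and those of MGE and CTX did not. The width there in LGE and CGE cannot be assigned to Auts2 alone. Foxp1 had the same 3 of 14 groups marked in every list, at its 5′ end (2628, 2663, 2757 and 3150 bp) and 494 kb downstream (1574, 1820, 1815 and 1836 bp). Both genes thus kept their set of promoters across the regions, and Foxp1 also nearly kept the widths at the internal one in LGE, CGE and CTX.

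In Smarca2, 4, 6, 5 and 3 of 21 groups were marked in MGE, LGE, CGE and CTX. The first group was inside a peak of 719, 3153, 3207 and 702 bp, and those about 143 kb downstream inside one of 1349, 2872, 1677 and 938 bp. Another promoter 165 kb into Smarca2 was marked in MGE, LGE and CGE (666, 797 and 682 bp) and not in CTX. In Tcf4, 3, 5, 5 and 3 of 18 groups were marked, with peaks of 1226, 2331, 2323 and 1318 bp at 250 kb. A group 156 kb into Tcf4 was inside a peak in LGE only, and a CTX peak ended 76 bp short of it. In Dnmt3a a promoter 85.7 kb into the gene was marked in every list (1610, 2032, 2160 and 1695 bp), while the second group, 1.02 kb from the 5′ end, was marked in CGE and CTX only. In Tcf20, 3, 3, 3 and 2 of 4 groups were marked, and the peak at the 5′ end was ordinary in width (1271, 1292, 1303 and 832 bp), so that the mean percentile of Tcf20 fell from 99.0 to 51.8 when only the 5′ end was read.

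**Figure D4:**
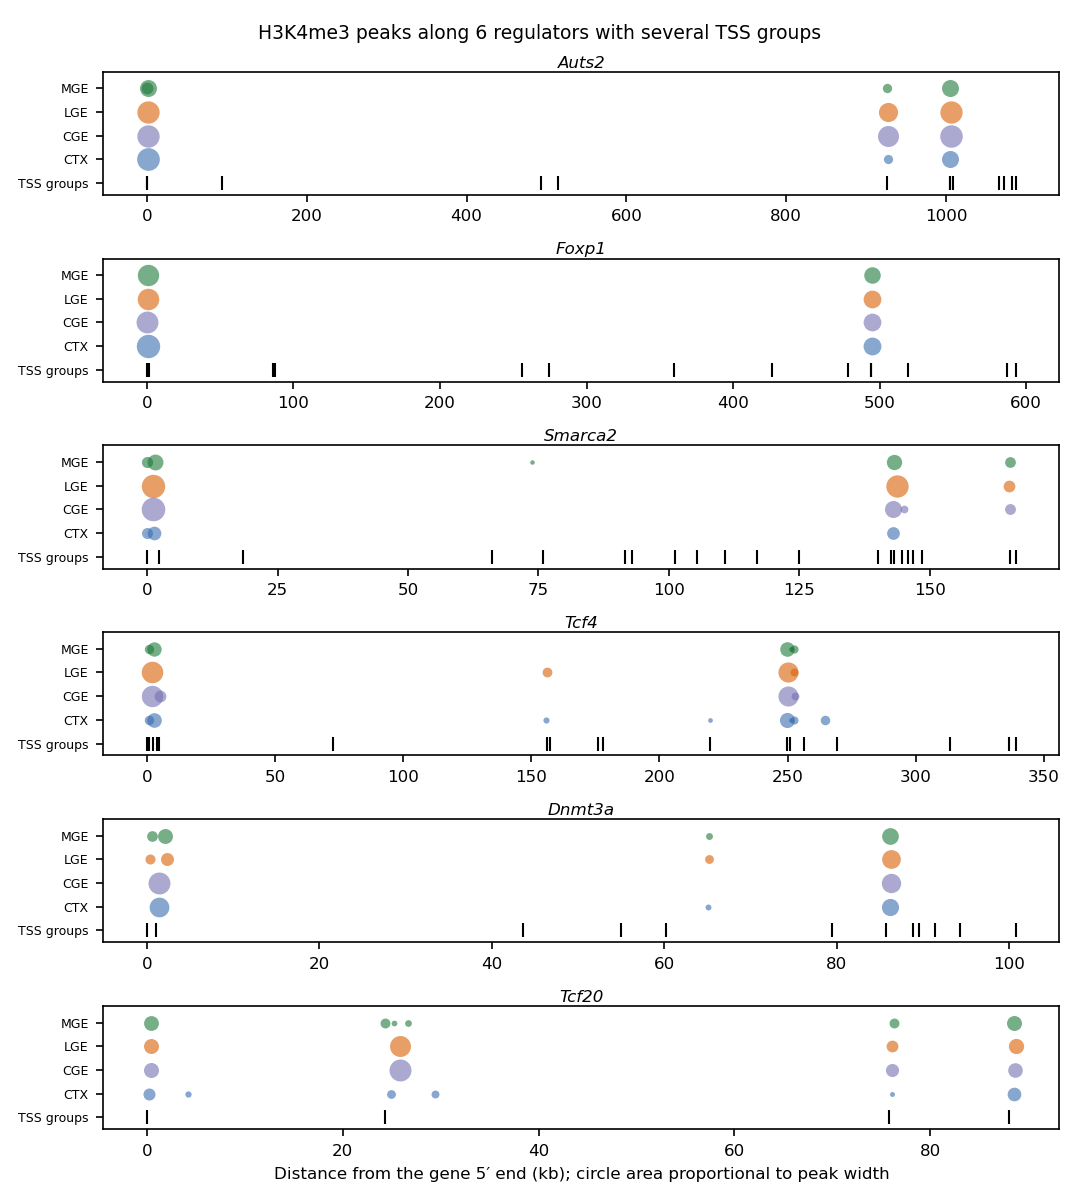
Position of H3K4me3 peaks (circles, area proportional to width in bp, 1 row per list) along Auts2, Foxp1, Smarca2, Tcf4, Dnmt3a and Tcf20 against the distance from the gene 5′ end (horizontal axis, kb, scaled per gene), with the first TSS of each TSS group as a tick in the bottom row. Auts2 and Foxp1 have the same marked groups in the 4 lists, and most ticks have no circle above them.

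The promoters of the regulators were rich in CpG. In the 300 bases from 250 before to 50 after the annotated 5′ end, the median regulator had 25 CpG, an observed-to-expected CpG ratio of 0.815 and 66.3% G and C. Genes marked in at least 1 list had medians of 18, 0.706 and 59.3%, and those marked in none 2, 0.168 and 45.7%. A ratio above 0.6 was found in 28 of the 37 (75.7%), in 62.4% of marked genes and in 44.3% of all. Over all genes, a peak within 5 kb of the 5′ end in all 4 lists was found in 13.6% of those with 0 to 4 CpG in this window and in 94.5% of those with 40 or more. Med13l (65 CpG), Chd7 (60) and Kmt2c (56) had the most.

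At 7 regulators the annotated 5′ end held at most 4 CpG: Chd2 (0), Mef2c (1), Hdac4, Dnmt3a and Tcf4 (2 each), Tet3 (3) and Kdm6b (4). In 5 of the 7, all but Chd2 and Dnmt3a, the TSS group at the 5′ end was inside no peak in any list. Kdm6b, Tet3, Tcf4 and Dnmt3a nonetheless had mean percentiles of 99.8, 94.4, 92.3 and 87.4 within 5 kb of that end, from peaks beside it, and Hdac4 and Mef2c had none. The median gene with 0 to 4 CpG had no peak there (percentile 0), so these 4 and Chd2 (54.5) had more coverage than most genes with such a 5′ end.

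**Figure D5:**
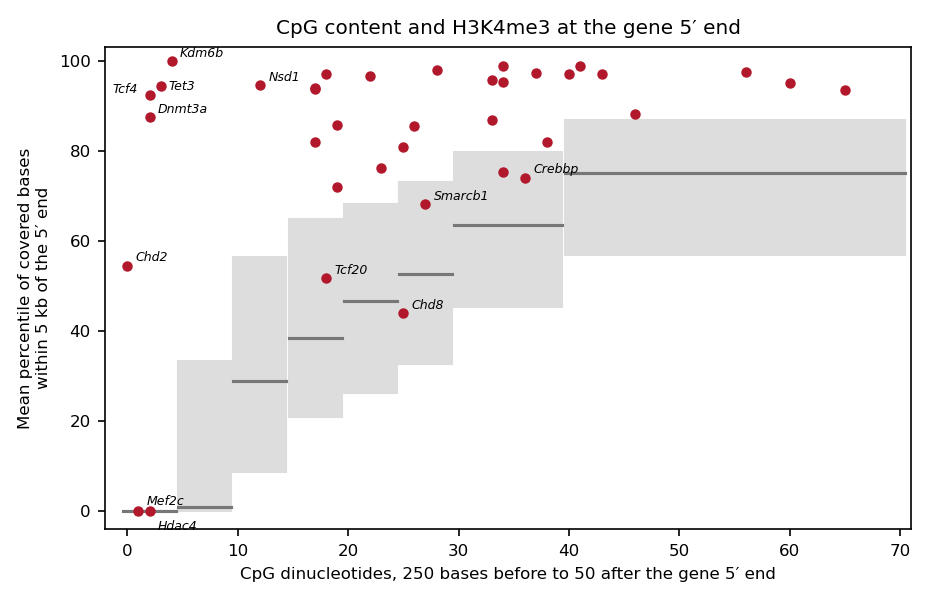
Mean over the 4 lists of the percentile of covered bases within 5 kb of the gene 5′ end (vertical axis) against the number of CpG in the 300 bases around it (horizontal axis); red points are the 37 regulators, grey boxes the quartiles and grey lines the medians of protein-coding genes in bins of CpG number. Most regulators lie above the box of their bin, and Mef2c and Hdac4 lie at 0.

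Short motifs of promoter-binding factors were searched on both strands of the same 300 bases. The SP1 motif GGGCGG was found in 28 of 37 regulators (75.7%), in 58.0% of marked genes and in 43.0% of all protein-coding promoters, and it contains a CpG itself. The YY1 motif AAGATGGC was found in Kmt2e, Kdm6b, Crebbp and Ep300 (10.8%, against 2.92% of all), 4 genes that include both paralogous acetyltransferases. For YY1 the share of marked genes was 3.70%. The ETS motif CCGGAAG was found in 10.8% of the regulators, 14.4% of marked genes and 10.8% of all promoters, and the NRF1 motif GCATGCGC in 5.41%, 4.52% and 3.70%. In the same order, the CREB motif TGACGTCA was found in 2.70%, 3.16% and 2.43%, the NFY motif CCAAT in 35.1%, 38.0% and 39.0%, and the TATA motif TATAAA in 8.11%, 7.68% and 12.7%. None of the 7 motifs contains another, and a match describes the letters of the window only.

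Partner genes of the same complexes that are not among the 37 ranked lower. Of 62 such genes, 59 were marked in all 4 lists. The median of the mean percentile over the 62, with unmarked genes counted as 0, was 70.0, against 89.4 for the regulators and about 50 for marked genes. By complex, counted in the same way, the medians were 61.5 for 18 further BAF genes, 71.5 for 12 COMPASS genes, 66.5 for 8 Polycomb repressive complex 2 genes, 68.6 for 10 cohesin genes, 71.2 for 6 genes of the Mediator kinase module and 62.2 for 8 DNA methylation genes. The BAF median was lowered by its unmarked genes: over the 16 marked ones, the medians were 79.0, 68.5, 66.8 and 79.5 in MGE, LGE, CGE and CTX. Some partners were as wide as the regulators. The BAF genes Smarcd3 and Dpf1 had mean percentiles of 99.3 and 98.8, the H3K4 methyltransferase gene Setd1b 98.3 and the Polycomb cofactor gene Jarid2 98.9. Others were narrow, such as Ezh1, the paralogue of Ezh2, with 683, 1007, 1181 and 576 covered bases in MGE, LGE, CGE and CTX, and Dpy30, a core COMPASS subunit, with 925, 1048, 1069 and 924. Smarcd2, Ss18l1 and Phf19 had no peak in any list.

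Of the 62 partners, 5 had percentiles at least 30 points apart (Smarcd1, Brd7, Actl6b, Ccnc and Dnmt1), where the background was again 15.7%, and none of the 5 had LGE and CGE both 30 points above MGE and CTX. Smarcd1, a BAF subunit, came near to it, with 812, 1595, 1699 and 882 covered bases and percentiles of 30.5, 61.6, 62.0 and 32.8 in MGE, LGE, CGE and CTX, LGE being less than 30 points above CTX. Actl6b, the BAF subunit of postmitotic neurons, had 1137, 1304, 1459 and 345 covered bases in MGE, LGE, CGE and CTX, the lowest being CTX. Dnmt1, the maintenance DNA methyltransferase, had 928, 1557, 1558 and 1474, the lowest being MGE. Stag2, a cohesin subunit, had 1563, 3503, 3508 and 1563 covered bases with percentiles of 79.1, 96.3, 95.3 and 77.6, the split in width seen at Chd2, Hdac4 and Crebbp but within 30 points.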

How the data were processed

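H3K4me3 CUT&Tag peak lists of MGE, LGE, CGE and CTX were analysed, 1 list per region from the merged replicates of 12 libraries mapped by their labels. Per the submitters' processing notes and the study's methods, the authors aligned reads to GRCm38/mm10 with Bowtie2, removed duplicates with Picard, used SAMtools and deepTools, and called broad peaks with MACS, whose version, threshold and control are not given in the sources used here. The deposited columns hold each peak's fold enrichment as a ratio to the background, the authors' −log10 p and −log10 q, and a score of 10 times the −log10 q. The reads behind a peak are not in the lists. Folds were compared as ranks within lists, and intervals cover counting error only. The lists hold no column of the authors' own comparisons. Covered bases, percentiles (ties shared equally), TSS groups and CpG were computed in Python 3.11.15 (numpy 2.4.6, pandas 2.3.3, scipy 1.17.1, pyfaidx 0.9.0.4, matplotlib 3.10.9) with GENCODE M21 and GRCm38.p6. Positions are 1-based. The interval arithmetic was tested on simulated data and gave the same result as counting single bases in 200 of 200 runs. No test between regions was possible. The 37 genes, the 62 partner genes, the markers and the rules were chosen with earlier results of these data known. The values of 1 marker gene are not reported here. All 37 genes are named, in detail those 30 points apart, set apart in 1 region, or among the 3 highest and 3 lowest by mean percentile. Promoter sequences come from RefSeq (GRCm38.p6), where 28 of the 37 matched. By the rule they belonged to the 2 highest, the 2 lowest and the 2 with the largest range off chromosome 18, and those of Crebbp and Mef2c were added after their values were seen. Auts2, Kdm6b, Chd2, Ash1l, Chd7, Kmt2e, Nipbl, Nsd1 and Tcf4 were not matched. Alternatives were other windows, peak filters, joined peaks, other measures and other thresholds.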

Additional observations from a re-analysis of the deposited data

How the results depend on the processing

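Of 59 alternatives, 49 moved a result by less than the interval of a median or kept a count within 1.5 times, and 10 moved it further. The number of regulators with percentiles at least 30 points apart is given with the share of all genes in brackets. It was 4 (15.7%) and became 14 (20.5%) with lists of equal size taken by highest fold, which removes peaks of low fold from the longer lists. It became 9 (19.9%) with the width of the widest peak in place of covered bases and 0 (10.9%) with the share of the windows covered. At 40 points it was 2 (8.89%), Chd2 and Hdac4. Added after seeing the data, it was 0 (6.04%) with the MGE and CTX lists only and 1 (2.08%) with the LGE and CGE lists only. With windows of 2 kb it was 5 (16.2%), of 10 kb 3 (13.5%), with peaks joined 3 (14.7%) and at 20 points 6 (31.9%). At the 5′ end only it was 5 (16.6%): Chd2, Crebbp, Chd8, Dnmt3a and Tcf20, without Hdac4 and Mef2c, which had no peak there. Chd2 was counted in each of these settings except the share of windows and the 2 pairs of lists. With lists of equal size, however, its CGE percentile was 11.2 in place of 82.7, below MGE at 22.9. The regulators marked in all 4 lists were 31 with lists of equal size, where the share of all genes was not counted, and 35 to 37 otherwise. The median percentile moved with the share of the windows covered, to 44.8, 36.7, 34.8 and 42.7 in MGE, LGE, CGE and CTX, from above to below that of all marked genes, and over the other alternatives it stayed above 80. No replicate could be left out in turn. No paired analysis was possible because each list pools its replicates and the results come from no test. What depth limits was not tested.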
